A study of Sus scrofa with 63 samples.

Results

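The proteasome genes of the liver of HP offspring were the genes whose only symbol in the array annotation began with PSM, followed by a letter from A to G and a number. This rule found 46 probe-sets of 40 genes among the 6765 genes with a single symbol, and for each gene the probe-set with the highest mean over all arrays was used. They were 14 genes of the 20S core, 15 of the 19S regulatory particle, 4 of the immunoproteasome and its activator PA28, 3 of other activators or inhibitors and 4 of assembly chaperones. PSMB9, the inducible partner of PSMB6, was not matched by a probe-set with a single symbol and was not analysed here. The same held for PSMC4, PSMD7, PSMD9, PSMG2, PSMG4, PSMA8 and PSMB11.

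The animals were German Landrace pigs, and all of their dams had received the high protein diet (HP) during gestation, so each value describes development within HP offspring. The groups were fetuses at 94 days post conception (94 dpc, 16 arrays), newborn piglets at 1 day post natum (1 dpn, 16 arrays), piglets at 28 dpn (15 arrays) and pigs at 188 dpn (16 arrays), with 1 array per animal. Litter mates were paired in the study, with a light and a heavy animal at 94 dpc and 1 dpn, and the labels do not give pair, mother or sex, so the p-values do not allow for shared litters. The fetuses came from another experiment than the piglets and were taken by Caesarean section, fetuses and newborns were killed by injection, and the older pigs were fasted overnight, stunned electrically and bled, so that these differences and age cannot be told apart.

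The proteasome degrades proteins that carry a chain of ubiquitin. Its 20S core is a barrel whose outer rings are made of alpha subunits, which control entry, and whose inner rings are made of beta subunits, of which PSMB5, PSMB6 and PSMB7 cut proteins. The 19S particle sits on the ends of the barrel, recognises ubiquitin, removes it and unfolds the substrate with a ring of ATPases. Interferon induces PSMB8, PSMB9 and PSMB10, which replace the cutting subunits in newly built cores, and the PA28 subunits PSME1 and PSME2, and the resulting immunoproteasome supplies peptides for MHC class I molecules. In liver, hepatocytes hold mainly the constitutive form, and immune cells hold more of the inducible form.

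Values are log2 signals, and a change is the mean of the later stage minus that of the earlier one, with its standard error (SE) and limma's adjusted p. Period I ran from 94 dpc to 1 dpn, period II from 1 dpn to 28 dpn, period III from 28 dpn to 188 dpn, and the whole course from 94 dpc to 188 dpn. The whole course shares its arrays with periods I and III. A probe-set was called where its adjusted p was under 0.05 over all probe-sets tested. All 40 genes passed the filter on low values in each comparison, and each was above background on all 63 arrays. Since the values come from whole tissue, fewer cells of a type and less RNA per cell cannot be told apart.

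The mean array median declined over the 4 stages from 7.38 through 7.23 and 6.83 to 6.72, and mean background was 6.10, 5.83, 5.65 and 5.64. The 3′ signal of the RNAs added before labelling exceeded the 5′ signal by 0.0076 to 0.258 on the 94 dpc arrays and by 0.576 to 1.91 on all later arrays, so labelling and age cannot be told apart in period I and in the whole course. The 3′ signal of actin exceeded its 5′ signal by a mean of 2.44, 1.59, 3.66 and 4.101 at the 4 stages. For GAPDH the mean difference was 1.09, 0.54, 0.76 and 0.66. These signs of RNA quality thus also moved between stages, actin most in period II and GAPDH most in period I. Their part in the results was not tested. All 11 hepatocyte markers were above background on at least 50% of the arrays of every stage, and the median of their summed linear signal was 655059, 522497, 440718 and 474005. The deposited scaling was compared with a pair of others. Quantile normalization moved the median change of all genes from -0.01 to 0.08 in period II and from -0.17 to 0.07 over the whole course, and centring each array on its median moved it to 0.21 and 0.28.

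From 94 dpc to 1 dpn most proteasome genes rose. Of the 40 genes 28 rose and 1 fell, while of all 12839 probe-sets tested 56.9% were called, 22.9% rising and 34.0% falling. Of the core genes 11 of 14 rose, of the 19S genes 12 of 15, and neither class had a gene that fell. The median change was 0.33 in the core, 0.37 in the 19S particle and 0.87 in the immunoproteasome class, against -0.03 over all genes. In 6 genes the values of the stages did not overlap, against 5.05% of all probe-sets tested. These were PSMA2, PSMA3, PSMB3, PSMC1, PSMC5 and PSMD2. With the labelling difference as a covariate the core median stayed at 0.32, but that covariate does not overlap between these stages. Only PSMA3, PSMC1 and PSMC5 of the 40 genes were called there, all rising, against 108 rising and 280 falling of all 12839 probe-sets.

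From 1 dpn to 28 dpn the genes went separate ways. Of the 40 genes 20 rose and 16 fell, against 71.7% of all 13078 probe-sets called, 28.8% rising and 42.9% falling. Core genes rose in 10 of 14 cases and fell in 2, 19S genes rose in 5 of 15 and fell in 8, and all 4 immunoproteasome genes rose. The median changes were 0.33, -0.18 and 0.94, against -0.01 over all genes. That of the 19S class became 0.04 with centred arrays, against 0.21 over all genes in that setting. Under quantile normalization the core median was 0.08, against 0.08 over all genes, with 6 core genes rising and 3 falling. The 40 genes had 15 rising and 17 falling there, against 4763 rising and 4483 falling of all 13078 probe-sets. In 7 genes the stages did not overlap, against 11.7% of all probe-sets. PSMA7, PSMB3, PSMB6 and PSME1 were higher on every array at 28 dpn, while PSMD12, PSMD14 and PSME3 were lower.

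From 28 dpn to 188 dpn 19 genes fell and PSMC5 alone rose, against 34.7% of all 12418 probe-sets called, 12.3% rising and 22.5% falling. Of the core genes 9 of 14 fell, of the 19S genes 4 of 15, and of the immunoproteasome genes all 4. The core median of -0.29 was also below the -0.08 of all genes. With centred arrays 14 of the 40 genes fell and 2 rose, against 1848 falling and 2372 rising of all 12418 probe-sets. The stages did not overlap for PSMB10, against 1.26% of all probe-sets.

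Between 94 dpc and 188 dpn 21 genes had risen and 14 had fallen, against 80.1% of all 13377 probe-sets called, 27.0% rising and 53.1% falling. Here many calls depended on the scaling. Quantile normalization gave 16 rising and 16 falling, against 5140 and 5318 of all 13377 probe-sets. Centring gave 26 rising and 6 falling, against 5616 and 4871 of them. The stages did not overlap for 13 genes, against 23.9% of all probe-sets, and PSMD10 and PSMD12 were the members of that set that were lower at 188 dpn.

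**Figure D1:**
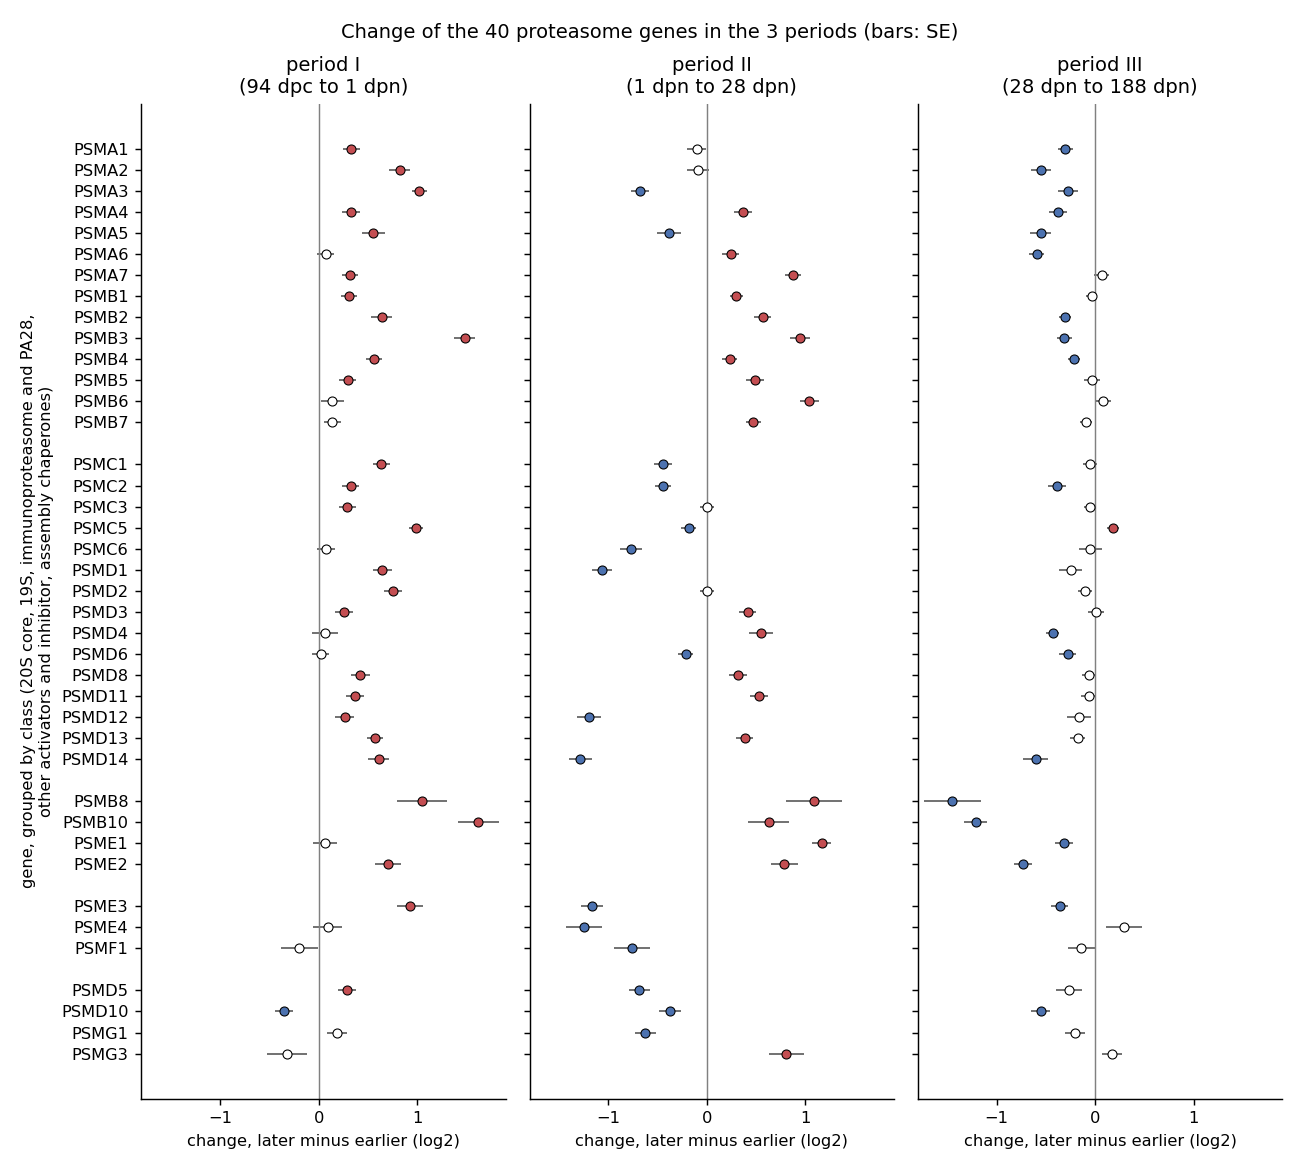
Change of each of the 40 proteasome genes in log2 units (horizontal axis) in periods I, II and III, with bars of 1 SE and the genes grouped by class. Red points rose, blue points fell and white points did not pass; in period I 11 of 14 core and 12 of 15 19S points are red, in period II the 19S class divides into 5 red and 8 blue points, and in period III 19 points are blue, 1 is red and 20 are white.

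Of the beta subunits of the core all 7, PSMB1 to PSMB7, rose in period II, 5 rose in period I, and all 7 were higher at 188 dpn than at 94 dpc. Of all probe-sets 28.8%, 22.9% and 27.0% rose in these comparisons, in this order. Under quantile normalization PSMB1 and PSMB4 turned to -0.02 and -0.09 in period II without passing the test, and PSMB1, PSMB4 and PSMB7 were no longer called over the whole course.

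PSMB3, a structural beta subunit, had the largest net increase of the 40 genes. At 94 dpc its signal ran from 9.00 to 9.83 with a median of 9.43. At 1 dpn it ran from 10.23 to 11.46 with a median of 10.86, at 28 dpn from 11.55 to 12.08 with a median of 11.85, and at 188 dpn from 11.08 to 11.88 with a median of 11.53. The 3 younger stages had no value in common, and the 188 dpn arrays overlapped only those of 1 dpn and 28 dpn. PSMB3 rose by 1.48 (SE 0.11, adjusted p = 4.96e-13) in period I and by 0.94 (SE 0.10, adjusted p = 1.1e-09) in period II, and fell by 0.31 (SE 0.08, adjusted p = 0.0014) in period III. The fall was not called with centred arrays, and the net change of 2.11 (SE 0.09, adjusted p = 2.73e-20) was 4.33-fold on the linear scale.

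PSMB5, PSMB6 and PSMB7 carry the chymotrypsin-like, caspase-like and trypsin-like cutting sites. The signal of PSMB6 had its lowest, median and highest values at 11.08, 11.97 and 12.30 at 94 dpc, 11.49, 12.06 and 12.60 at 1 dpn, 12.91, 13.11 and 13.39 at 28 dpn, and 12.69, 13.18 and 13.56 at 188 dpn. Every array of the older stages was above every array of the younger ones. Its change of 0.14 (SE 0.11, adjusted p = 0.306) in period I did not pass, it rose in period II by 1.04 (SE 0.10, adjusted p = 7.84e-11), and the 0.08 (SE 0.08, adjusted p = 0.435) of period III did not pass. The net change was 1.26 (SE 0.10, adjusted p = 1.87e-13), or 2.40-fold.

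PSMB5 had medians of 11.97, 12.18, 12.74 and 12.63 from 94 dpc to 188 dpn, within 11.49 to 12.12, 11.87 to 12.72, 12.38 to 12.95 and 12.26 to 13.11. It rose by 0.30 (SE 0.09, adjusted p = 0.0046) in period I and by 0.49 (SE 0.09, adjusted p = 1.61e-05) in period II, and period III gave -0.04 (SE 0.08, adjusted p = 0.763). For PSMB7 the medians were 12.57, 12.66, 13.13 and 13.06, within 11.97 to 12.75, 12.35 to 13.10, 13.05 to 13.42 and 12.78 to 13.33. PSMB7 rose in period II by 0.47 (SE 0.08, adjusted p = 2.09e-06), whereas 0.14 (SE 0.08, adjusted p = 0.139) in period I and -0.09 (SE 0.06, adjusted p = 0.246) in period III did not pass. PSMB5 and PSMB7 at 28 dpn and 188 dpn lay above all 94 dpc arrays and overlapped with 1 dpn, and their net changes were 0.75 (SE 0.08, adjusted p = 1.87e-10) and 0.52 (SE 0.07, adjusted p = 3.85e-08).

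The other structural beta subunits rose in both early periods. PSMB1 gained 0.31 and 0.30 in periods I and II, PSMB2 0.64 and 0.57, and PSMB4 0.56 and 0.23, each with the call. In period III PSMB2 fell by 0.31 and PSMB4 by 0.22, while PSMB1 had -0.04 and did not pass.

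The alpha subunits, which form the gate, did not share 1 course. In period I 6 of the 7 rose, led by PSMA3 with 1.02 and PSMA2 with 0.82, against 22.9% of all probe-sets. Only PSMA6 with 0.07 did not pass. In period II PSMA4, PSMA6 and PSMA7 rose, PSMA3 and PSMA5 fell, and PSMA1 and PSMA2 with -0.11 and -0.09 did not pass. PSMA6 turned to -0.03 under quantile normalization, where PSMA2 was called lower. In period III 6 of the 7 fell, by 0.28 (PSMA3) to 0.59 (PSMA6), against 22.5% of all probe-sets.

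PSMA7 had the largest net increase of the alpha subunits. Its signal was 12.65 to 13.10 at 94 dpc with a median of 12.86, 12.63 to 13.56 at 1 dpn with a median of 13.15, 13.70 to 14.37 at 28 dpn with a median of 14.05, and 13.72 to 14.47 at 188 dpn with a median of 14.14. The older stages lay above the younger ones on every array. PSMA7 rose by 0.32 (SE 0.08, adjusted p = 0.000767) in period I and by 0.87 (SE 0.08, adjusted p = 8.29e-11) in period II, and 0.07 (SE 0.08, adjusted p = 0.545) in period III did not pass. The net change was 1.26 (SE 0.07, adjusted p = 7.55e-17).

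Over the whole course PSMA4 and PSMA7 rose by 0.32 and 1.26, and PSMA5 and PSMA6 fell by 0.38 and 0.28. PSMA1, PSMA2 and PSMA3, with -0.08, 0.18 and 0.07, did not pass, were called lower under quantile normalization and called higher with centred arrays. The falls of PSMA5 and PSMA6 became 0.06 and 0.17, not called, with centred arrays. For these alpha subunits the sign of the net change therefore depended on the scaling.

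**Figure D2:**
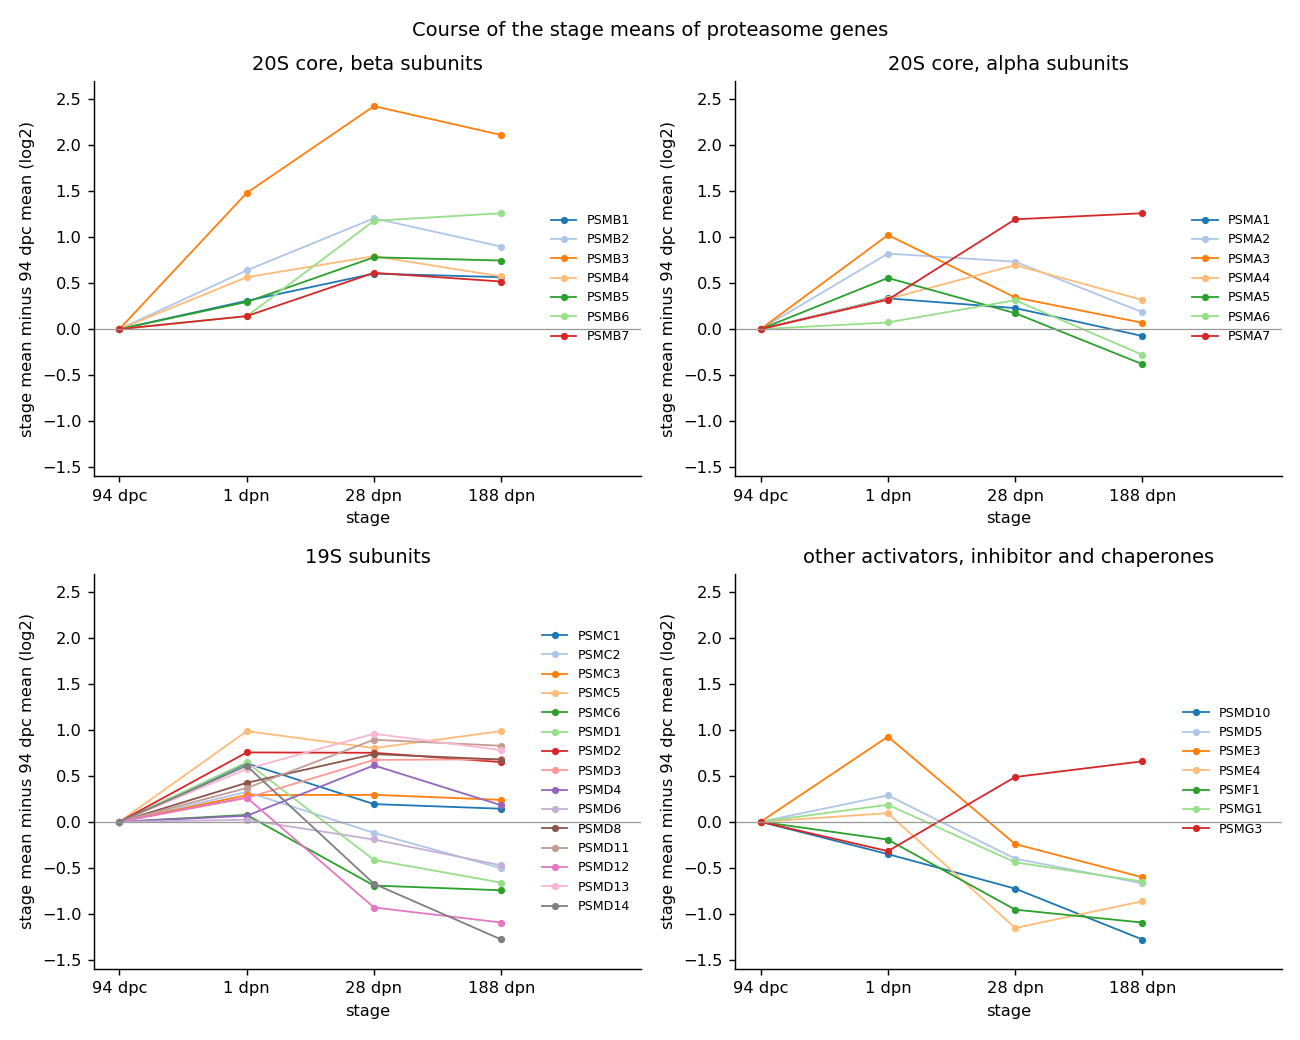
Stage means of the constitutive proteasome genes minus their 94 dpc mean, in log2 units (vertical axis), at the 4 stages. The lines of the 7 beta subunits all lie above 0 after 94 dpc, PSMA7 leaves the other alpha subunits at 28 dpn, and the 19S subunits, all above 0 at 1 dpn, spread from -0.93 to 0.96 at 28 dpn.

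In the 19S particle the ATPases PSMC1, PSMC2, PSMC3 and PSMC5, which unfold substrates, rose in period I, and PSMC6 with 0.07 did not pass. In period II PSMC1, PSMC2, PSMC5 and PSMC6 fell by 0.44, 0.45, 0.18 and 0.77, and PSMC3 had 0.00. The fall of PSMC5 was lost with centred arrays (0.04), with the labelling covariate and without the filter on low values. In period III PSMC2 fell by 0.39, while PSMC1, PSMC3 and PSMC6 had -0.05 to -0.06 and did not pass.

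PSMC5 was the single gene that rose in period III. Its signal was 10.71 to 11.09 at 94 dpc with a median of 10.85, 11.38 to 12.19 at 1 dpn with a median of 11.85, 11.37 to 11.91 at 28 dpn with a median of 11.68, and 11.68 to 12.25 at 188 dpn with a median of 11.84. All later arrays exceeded all 94 dpc arrays, and the later stages overlapped with each other. The change was 0.99 (SE 0.07, adjusted p = 2.64e-13) in period I, -0.18 (SE 0.08, adjusted p = 0.0331) in period II and 0.18 (SE 0.06, adjusted p = 0.0178) in period III, a call that was lost at an adjusted p of 0.01 and with the labelling covariate.

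The lid subunits, which surround the deubiquitinase PSMD14, divided in period II. PSMD3, PSMD8, PSMD11 and PSMD13 rose by 0.41, 0.31, 0.53 and 0.38, and PSMD6, PSMD12 and PSMD14 fell by 0.21, 1.20 and 1.28, respectively. PSMD8 had 0.02 under quantile normalization and PSMD6 0.01 with centred arrays, and neither was called there. Of the 3 probe-sets of PSMD11 the brightest rose by 0.53 and the next by 0.38, while the dimmest fell by 1.97 and came close to background, and the mean of all 3 fell by 0.36 in period II and by 0.22 over the whole course, against a net rise of 0.83 in the brightest. In period I the same 4 subunits had risen by 0.26, 0.42, 0.37 and 0.57, PSMD12 and PSMD14 by 0.26 and 0.61, and PSMD6 with 0.02 had not passed.

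PSMD14, which removes the ubiquitin chain before a substrate enters the barrel, had the largest decrease of period II. Its signal was 9.89 to 10.92 at 94 dpc with a median of 10.56, 10.68 to 11.77 at 1 dpn with a median of 11.06, 9.18 to 10.34 at 28 dpn with a median of 9.92, and 8.71 to 9.90 at 188 dpn with a median of 9.16. All 28 dpn and 188 dpn arrays were below all 1 dpn arrays. PSMD14 rose by 0.61 (SE 0.10, adjusted p = 6.73e-06), fell by 1.28 (SE 0.11, adjusted p = 1.33e-11) and fell again by 0.61 (SE 0.13, adjusted p = 0.000349) in turn over the 3 periods, and the net change was -1.28 (SE 0.12, adjusted p = 1.62e-11).

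PSMD12, a scaffold of the lid, had medians of 9.55, 9.90, 8.68 and 8.49, within 9.05 to 10.03, 9.30 to 10.24, 8.04 to 9.28 and 7.77 to 8.97. The 28 dpn and 1 dpn values did not overlap. It rose by 0.26 (SE 0.10, adjusted p = 0.0227) in period I, a call that was lost at an adjusted p of 0.01 and without the 94 dpc arrays 13 and 14, and fell by 1.20 (SE 0.12, adjusted p = 1.67e-10) in period II, after which -0.16 (SE 0.12, adjusted p = 0.316) did not pass.

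In the base, PSMD1 and PSMD2 rose in period I by 0.65 and 0.75. PSMD1 then fell by 1.06 in period II, which its other probe-set showed as a fall of 0.73, whereas PSMD2 stayed at 0.00 and did not pass. The ubiquitin receptor PSMD4 had 0.07 in period I without the call, rose by 0.55 in period II and fell by 0.43 in period III. PSMD6 also fell in period III, by 0.28, and the remaining lid and base subunits other than PSMD14, PSMC2 and PSMC5 did not pass there. For PSMC2 the other 2 probe-sets gave -0.19 and -0.03 in period I, against the 0.32 of the brightest, and -0.34 and -0.76 in period II.

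The 4 immunoproteasome and PA28 genes rose from 1 dpn to 28 dpn, where each had its highest mean, and fell to 188 dpn. Of all probe-sets 28.8% rose in period II and 22.5% fell in period III. The SD within a stage was 0.80 for PSMB8, 0.49 for PSMB10, 0.29 for PSME1 and 0.32 for PSME2, against 0.17 (PSMB1) to 0.31 (PSMA5) in the 14 core genes.

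PSMB8, the inducible partner of PSMB5, had the widest spread of the 40 genes. Its signal was 7.18 to 9.78 at 94 dpc with a median of 8.31, 7.87 to 10.79 at 1 dpn with a median of 9.21, 8.92 to 11.76 at 28 dpn with a median of 10.65, and 7.94 to 10.60 at 188 dpn with a median of 8.70. Neighbouring stages overlapped throughout. PSMB8 rose by 1.05 (SE 0.25, adjusted p = 0.000679) and by 1.09 (SE 0.29, adjusted p = 0.0012) in periods I and II, or 2.07-fold and 2.12-fold, and fell by 1.45 (SE 0.29, adjusted p = 0.000165) in period III. The net change of 0.68 (SE 0.25, adjusted p = 0.0148) was -0.06 and not called with the labelling covariate.

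PSMB10, the inducible partner of PSMB7, had the largest increase of period I. It ran from 8.69 to 10.04 at 94 dpc with a median of 8.96, from 9.20 to 11.59 at 1 dpn with a median of 10.93, from 10.74 to 12.30 at 28 dpn with a median of 11.34, and from 9.66 to 10.64 at 188 dpn with a median of 10.11. Of the newborns 3 lay within the range of the fetuses, and every 188 dpn array lay below every 28 dpn array. PSMB10 rose by 1.62 (SE 0.20, adjusted p = 3.75e-08) in period I, or 3.08-fold, rose in period II by 0.63 (SE 0.21, adjusted p = 0.0077) and fell by 1.21 (SE 0.12, adjusted p = 1.63e-09) in period III. The net change was 1.04 (SE 0.12, adjusted p = 2.75e-09). Without the 1 dpn arrays 25, 27 and 28 the rise of period II was 0.39 (adjusted p = 0.0402).

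PSME1 and PSME2, the alpha and beta subunits of PA28, differed in period I. PSME1 had medians of 11.61, 11.87, 12.91 and 12.58, within 11.08 to 12.66, 10.98 to 12.16, 12.60 to 13.30 and 12.23 to 13.10. Its 28 dpn values all exceeded the 1 dpn values. The change of 0.06 (SE 0.12, adjusted p = 0.666) in period I did not pass, PSME1 rose in period II by 1.16 (SE 0.10, adjusted p = 3.67e-12), the largest increase of that period, and fell by 0.32 (SE 0.09, adjusted p = 0.00602) in period III, which was not called with centred arrays.

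PSME2 had medians of 10.81, 11.79, 12.42 and 11.60, within 10.62 to 11.67, 10.74 to 12.32, 11.87 to 13.16 and 11.28 to 11.99. It rose by 0.70 (SE 0.13, adjusted p = 2.94e-05) in period I and by 0.79 (SE 0.13, adjusted p = 4.66e-06) in period II and fell by 0.73 (SE 0.09, adjusted p = 1.53e-07) in period III. Neighbouring stages overlapped, and 7 of the 16 newborns lay within the fetal range. The net change was 0.76 (SE 0.09, adjusted p = 4.8e-09), and that of PSME1 was 0.91 (SE 0.12, adjusted p = 1.43e-08). None of the rises of the class in period I was called with the labelling covariate, where 108 of all 12839 probe-sets rose. Its 4 rises of period II and its 4 falls of period III were called with that covariate.

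**Figure D3:**
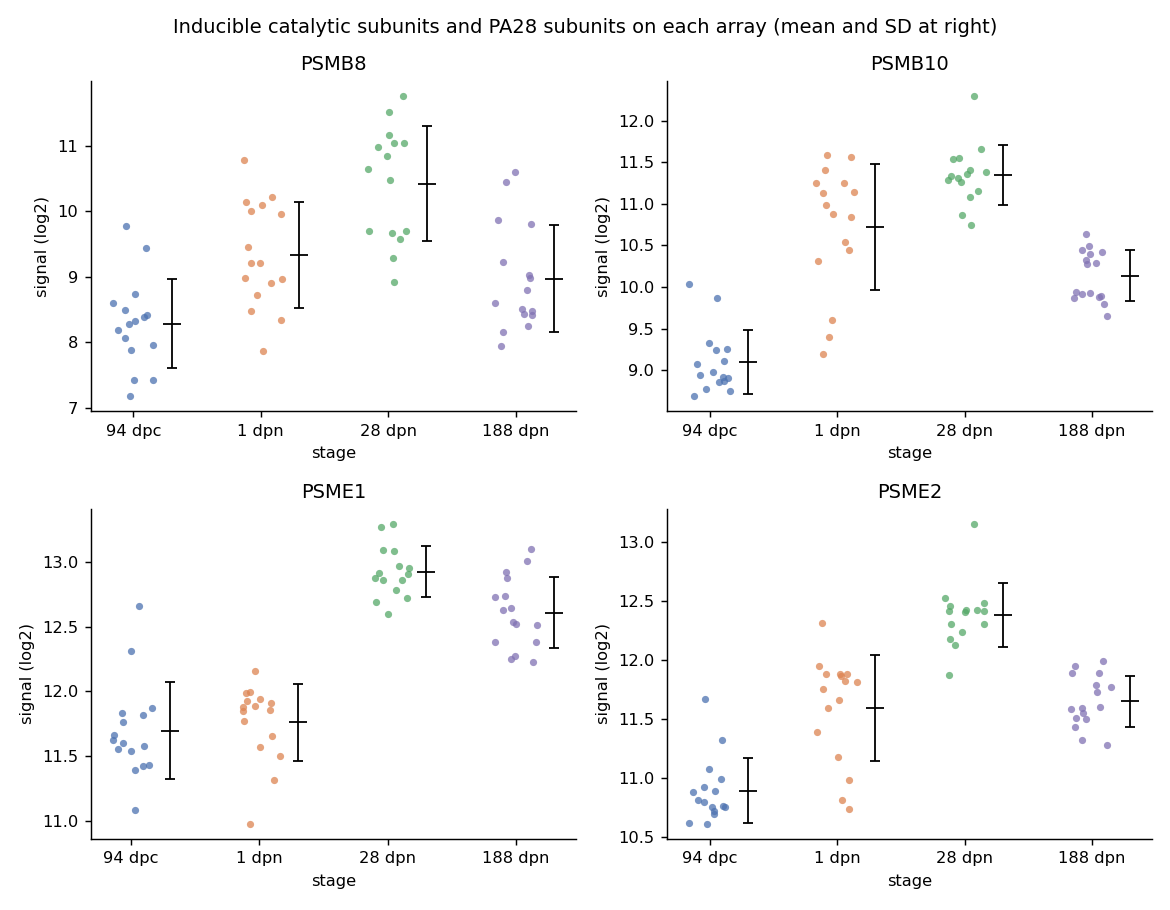
Log2 signal (vertical axis) of PSMB8, PSMB10, PSME1 and PSME2 on each array at the 4 stages, with the mean and SD of each stage beside the points. The 28 dpn points are the highest group in each panel, a pair of 94 dpc points stands above the others of that stage, and the PSMB8 points spread over more than 2 log2 units within each stage.

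Some animals stood apart for the whole class. At 94 dpc arrays 13 and 14 had the highest signals of all 4 genes, with 9.78 and 9.45 for PSMB8 and 12.66 and 12.32 for PSME1, and the interferon-induced gene ISG15 was 11.44 and 10.79 there, against 4.78 to 8.87 on the other 14 fetal arrays. Without these arrays PSMB8 rose by 1.24, PSMB10 by 1.75 and PSME2 by 0.79 in period I, and PSME1 with 0.18 still did not pass. At 1 dpn arrays 25 and 27 had the lowest signals of PSMB10 and PSME2, and ISG15 was 7.63 and 7.92 on them, the lowest of the newborns.

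The deviation of each array from the mean of its stage was compared between these genes over the 63 arrays. PSMB10 and PSME2 moved together most closely, with r = 0.88 and rho = 0.84 (adjusted p = 1.2e-05 and 2e-05, permutation within stages over 6 pairs), and r within the stages was 0.80 to 0.93. Leaving out the 2 arrays farthest from the median in PSMB10 gave r = 0.85. PSME1 and PSME2 had r = 0.74 and rho = 0.72, and the other pairs r between 0.47 and 0.63, with rho between 0.39 and 0.56. All 6 pairs passed (permutation, adjusted p at most 6e-05 for r and 0.00185 for rho), and 1e-05 is the smallest p that the permutations can give. These pairs were picked with their values in view, and the permutations do not allow for shared litters. Their p-values therefore serve as a description only. PSMB8 departed from PSMB10 at 28 dpn, where their r was -0.08, against 0.76 at 94 dpc, 0.76 at 1 dpn and 0.31 at 188 dpn. The difference between these stages was not tested. The genes of an array share its scaling and its labelling, and labelling varied within stages. The labelling difference ran from 0.716 to 1.91 on the 28 dpn arrays and from 0.655 to 1.70 on the 188 dpn arrays. Its part in these correlations was not tested, and litter mates are among the arrays.

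To compare the RNA of the exchangeable cutting subunits, the inducible subunit minus its constitutive partner was taken within each array, which removes the scaling factor of the array. The exchange in built cores was not measured. A labelling effect that differs between probe-sets would remain, and these tests were not run with the labelling covariate. Signals of different probe-sets are not on a common scale, so the changes of the difference are read and not its sign. PSMB8 minus PSMB5 was -4.43 to -2.28 at 94 dpc (median -3.62), -4.40 to -1.32 at 1 dpn (median -2.80), -3.85 to -0.64 at 28 dpn (median -1.91) and -4.66 to -2.16 at 188 dpn (median -3.90). It rose by 0.75 (SE 0.26, adjusted p = 0.01, permutation test, two-sided) in period I, differed by 0.60 (SE 0.31, adjusted p = 0.0774, permutation test) over period II, which did not pass, and fell by 1.41 (SE 0.32, adjusted p = 0.00056, permutation test) in period III. Under quantile normalization the change of period II was 0.92 and passed (adjusted p = 0.00809, permutation test). All stages overlapped.

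PSMB10 minus PSMB7 had medians of -3.58, -1.64, -1.83 and -2.87, within -3.96 to -2.71, -3.30 to -1.15, -2.30 to -0.86 and -3.54 to -2.55. The 28 dpn and 188 dpn values did not overlap. The difference rose by 1.48 (SE 0.20, adjusted p = 0.00012, permutation test) in period I and fell by 1.12 (SE 0.12, adjusted p = 0.00012, permutation test) in period III, where the raw p of 2e-05 was the smallest that the test can give. The 0.16 (SE 0.20, adjusted p = 0.455, permutation test) of period II did not pass, while both genes rose.

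**Figure D4:**
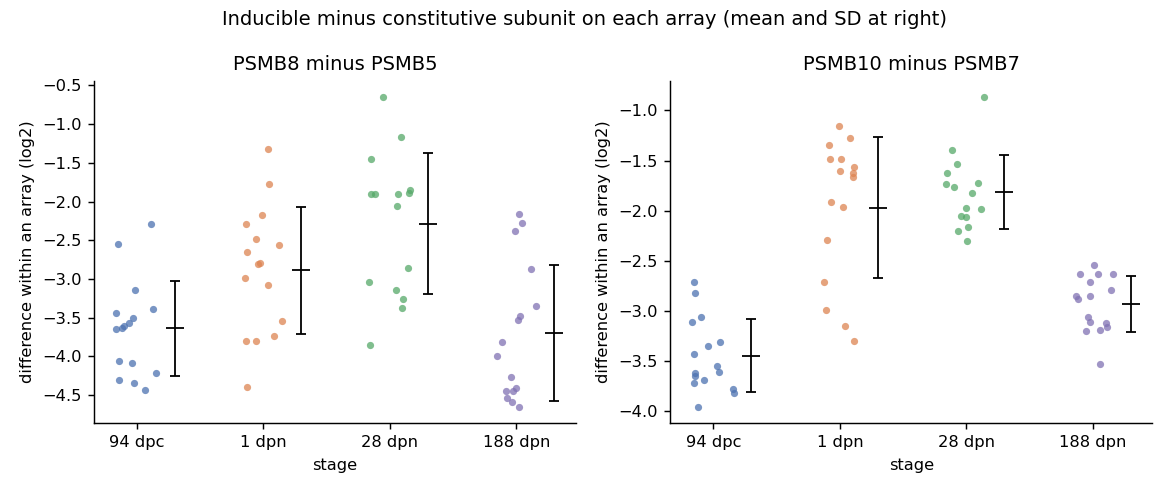
PSMB8 minus PSMB5 and PSMB10 minus PSMB7 within each array (vertical axis, log2 units) at the 4 stages, with mean and SD beside the points. The PSMB10 minus PSMB7 points of 28 dpn all lie above those of 188 dpn, and most points of 1 dpn lie at the level of 28 dpn.

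Other genes of antigen processing and the interferon response were read from a list. Of the 17 on the array 7 rose and 3 fell among 14 tested in period I, 9 rose and 3 fell among 14 in period II, and 10 of 15 fell with none rising in period III, with median changes of 0.61, 0.90 and -0.57. Of all probe-sets 22.9% rose and 34.0% fell in period I, 28.8% and 42.9% in period II, and 12.3% and 22.5% in period III. TAP1, the peptide transporter whose gene is the neighbour of PSMB8 in the RefSeq gene order of Sscrofa11.1, had 0.63 (adjusted p = 0.0543) in period I, rose by 1.79 in period II and fell by 1.21 in period III. IRF9, an interferon signalling factor whose gene neighbours PSME2, rose by 0.81 and 1.29 and fell by 0.52. ISG15, an interferon-induced modifier, rose by 1.58 and 3.30 and fell by 2.44, and GBP1, an interferon-induced GTPase, rose by 1.78 and 1.26 and fell by 1.80, while B2M, the light chain of MHC class I, fell by 0.86 in period I and then had 0.07 and -0.06 without passing.

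Immune cell markers also changed in these periods, and their part in the results for the immunoproteasome genes was not tested. The summed linear signal of 10 macrophage markers was 2565 to 26413 at 94 dpc, 15895 to 39853 at 1 dpn, 46323 to 69889 at 28 dpn and 28478 to 50686 at 188 dpn. Of the 10, 3 rose in period I, 6 rose in period II and all 10 fell in period III, against 22.9% and 28.8% of all probe-sets rising and 22.5% falling. The summed signal of 12 T and NK cell markers was 569 to 2353, 562 to 1464, 2064 to 5226 and 2148 to 4757, and all 6 tested in period II rose, while CD2, CD3E, CD3G, CD4, IL7R and PRF1 were too dim to be tested. GNLY was above background on none of the 1 dpn arrays and PRF1 on none of those at 94 dpc or 28 dpn. CD8A was above background on 5 of the 16 arrays at 1 dpn. The filter on low values kept a marker that was bright enough at either stage. At least GNLY and CD8A were thus tested in period II through their 28 dpn signals alone. For such markers the filter favoured a rise, so the count of T and NK cell markers that rose is partly set by it. The median sum of the neutrophil list was 5501, 1898, 1697 and 998, and that of the red cell precursor list was 22161, 2136, 5593 and 3732. In period I 5 of 6 tested neutrophil markers and all 5 red cell precursor markers fell, against 34.0% of all probe-sets.

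The probe-sets used for the other activators and the inhibitor all fell in period II, against 42.9% of all probe-sets. PSME3, the nuclear PA28 gamma, rose by 0.93 in period I (7.96 to 9.60 at 94 dpc, 9.47 to 10.83 at 1 dpn), fell by 1.17 in period II to 8.34 to 9.12 without overlap, and fell by 0.36 in period III to 8.08 to 8.96. In period II it thus fell while PSME1 and PSME2 rose.

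PSME4, the activator PA200, had medians of 8.67, 8.86, 7.69 and 7.78, within 8.05 to 9.29, 7.81 to 9.76, 6.55 to 8.25 and 6.62 to 8.60. The later stages overlapped with the earlier ones. PSME4 fell by 1.25 (SE 0.18, adjusted p = 3.55e-07) in period II, and 0.09 (SE 0.15, adjusted p = 0.604) in period I and 0.29 (SE 0.18, adjusted p = 0.233) in period III did not pass.

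The inhibitor PSMF1 cannot be given a direction in period II or over the whole course, since its probe-sets disagreed there. The brighter one had medians of 9.81, 9.58, 8.81 and 8.61, within 7.84 to 10.22, 7.83 to 10.43, 8.11 to 9.40 and 7.86 to 9.13. It fell by 0.76 (SE 0.18, adjusted p = 0.000346) in period II and by 1.097 (SE 0.16, adjusted p = 1.12e-07) over the whole course, whereas the other rose by 1.03 and 0.63 in the same comparisons. The mean of both did not pass in either. In periods I and III the brighter one had -0.19 (SE 0.19, adjusted p = 0.395) and -0.14 (SE 0.14, adjusted p = 0.452).

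The assembly chaperones build the particles and are not part of the finished proteasome. Of the 4, 1 rose and 1 fell in period I, and 1 rose and 3 fell in period II. In period III 1 fell, and over the whole course 1 rose and 3 fell. Of all probe-sets 22.9% rose and 34.0% fell in period I, and 28.8% and 42.9% in period II. The shares were 12.3% and 22.5% in period III, and 27.0% and 53.1% over the whole course. PSMD10, also known as gankyrin, was the gene that fell in every comparison. Its medians were 9.80, 9.50, 9.10 and 8.56, within 9.57 to 10.18, 8.61 to 9.98, 8.67 to 9.79 and 7.91 to 8.92, and all 188 dpn arrays lay below all 94 dpc arrays. PSMD10 fell by 0.35 (SE 0.10, adjusted p = 0.00216), 0.38 (SE 0.11, adjusted p = 0.00309) and 0.55 (SE 0.10, adjusted p = 2.61e-05) in turn over the 3 periods, and by 1.28 (SE 0.08, adjusted p = 7.11e-16) in all. The fall of period II was not called under quantile normalization or with centred arrays.

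PSMD5 and PSMG1 fell by 0.69 and 0.63 in period II and by 0.67 and 0.65 over the whole course, and the latter falls were lost with centred arrays. PSMD5 had risen by 0.29 in period I, where PSMG1 with 0.19 did not pass. PSMG3 went the other way, with -0.32 (adjusted p = 0.183) in period I, a rise of 0.81 in period II and 0.17 (adjusted p = 0.194) in period III.

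Another list held genes of the pathway whose symbols do not follow the PSM pattern. Of the 10 on the array, 3 rose and 3 fell in period I, 4 rose and 2 fell in period II, and 1 rose and 5 fell in period III, with medians of -0.05, 0.06 and -0.24. The shares of all probe-sets were 22.9% rising and 34.0% falling in period I, 28.8% and 42.9% in period II, and 12.3% and 22.5% in period III. SEM1, a small lid subunit, rose by 0.41 and 0.17 and fell by 0.44. VCP, the segregase that hands substrates over, rose by 0.57 in period I and fell by 0.24 in period III, with 0.01 between. RPS27A and UBB, which encode ubiquitin, fell by 0.84 and 0.48 in period I and did not pass in periods II and III, and the ubiquitin ligase UBE3A fell by 1.35 in period II and 0.42 in period III.

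The pairs of genes were also compared within stages. Over the deviations from the stage means the median pairwise r was 0.46 in the core (91 pairs), 0.26 in the 19S particle (105 pairs) and 0.60 in the immunoproteasome class (6 pairs), against 0.0041 over the 5500 genes compared. Between the immunoproteasome and the core it was 0.33. Some pairs ran against each other, down to r = -0.57 for PSMD8 and PSME4. These correlations over 63 arrays are a description, and the genes of an array share its scaling and labelling. Relative to all arrays, the core mean was -1.06 and the 19S mean -0.49 on 94 dpc array 6, the lowest of the fetuses. That array also had the highest 3′ minus 5′ differences of actin and GAPDH among them, 4.30 and 2.54. The median r was not computed without it.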

How the data were processed

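Per the labels, total RNA of liver was labelled with biotin and hybridised to Affymetrix porcine arrays. The authors deposited log2 signals of 24123 probe-sets, for which the submitters' processing notes name GCOS 1.1.1. The values behave as MAS5-type signals, each array scaled to a common trimmed mean, without further normalization between arrays. The GCRMA step of the study's methods was not part of them. The 188 control probe-sets were not tested. In the platform annotation 10069 probe-sets had 1 symbol, 198 several and 13668 none.

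Each comparison was fitted on its 2 stages with limma 3.58.1 in R 4.3.3 (lmFit and eBayes, two-sided), keeping probe-sets that exceeded the array median in 50% or more of the animals of either stage, with Benjamini-Hochberg adjustment at 0.05. In simulated data with 200 planted changes per comparison and independent noise, 84% to 92% of changes of 1 log2 unit were recovered. Of changes of 0.5 log2 units 47% to 54% were recovered, and 2.8% to 7.1% of calls were false. The simulation held no litter mates and far fewer changed probe-sets than were called in the real data. Differences within arrays were tested with 100000 permutations in scipy 1.17.1, over 6 tests in place of the 9 designed, since PSMB9 was not analysed. Background was set per array at the 95th percentile of 23 controls that match no target, and the labelling difference was the mean over the added RNAs dap, lys, phe and thr. Depth has no meaning for arrays, and their number limits the precision.

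Every gene was named. PSMB8, PSMB10, PSME1, PSME2, PSMB5, PSMB6 and PSMB7 were given in full, as were the 3 largest increases and decreases of each comparison, with up to 4 of the largest called genes of each other list. The members, lists and rules were chosen with earlier results of these data known. The correlations of immunoproteasome pairs, the arrays that stood apart, TAP1, IRF9, B2M, SEM1 and UBB were picked with their values in view. The alternatives tried were 2 scalings, 2 filters, 1 fit of all 63 arrays, 2 variance models, the mean of a gene's probe-sets, a threshold of 0.01, the labelling covariate and arrays left out. Neighbouring genes came from the RefSeq table of Sscrofa11.1, and no coordinates or sequences were used here. Figures were drawn with matplotlib 3.10.9.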

Additional observations from a re-analysis of the deposited data

How the results depend on the processing

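The counts of the 40 genes in each direction stayed within 1.5 times of those given above under quantile normalization, without a filter on level, with a filter at the 75th percentile, in 1 fit of all 63 arrays, with a trend, with array weights, and without 94 dpc arrays 6 and 13, 94 dpc arrays 13 and 14 (chosen after seeing the data) or 1 dpn arrays 25, 27 and 28. Other settings moved some of them. Of period I, 3 genes rose and 0 fell with the labelling covariate, against 108 and 280 of all 12839 probe-sets. With the mean of a gene's probe-sets 2 fell. In period III 2 rose with centred arrays, against 2372 of all 12418 probe-sets. At an adjusted p under 0.01 and with the labelling covariate 0 rose, against 1071 and 1513 probe-sets, respectively. Over the whole course 6 fell with centred arrays, against 4871 of all 13377 probe-sets. PSMB8 minus PSMB5 in period II was 0.92 under quantile normalization and passed there. The median r within stages over all pairs of the 40 genes was 0.23, and 0.26 under quantile normalization. The cause of these changes was not tested, except that the labelling covariate and the stage do not overlap in period I. Of all called probe-sets 40.2%, 40.1%, 35.4% and 33.7% rose in the 3 periods and the whole course, in this order, against 48.2%, 51.5%, 47.3% and 49.1% under quantile normalization and 50.9%, 54.6%, 56.2% and 53.6% with centred arrays. No paired analysis was possible because the columns carry only array numbers, which do not repeat between stages. Signals near background, as of the dimmest PSMD11 probe-set, limit what a change there can show.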

Other observations

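Cell cycle genes were read on the same arrays as a group apart from the proteasome. Of the 16 on the array 13 fell in period II among 15 tested, and all 11 tested fell in period III, with median changes of -1.25 and -1.52, against 42.9% and 22.5% of all probe-sets falling. In period I 1 rose and 1 fell, with a median of -0.30, against 22.9% and 34.0% of all probe-sets. The filter on low values kept a gene that was bright enough at either stage. CCNB1 and CDC20 were above background on 6 of the 16 arrays at 188 dpn, so they were tested in period III through 28 dpn alone. MCM4, above background on 7 of 15 arrays at 28 dpn, was tested in period II through 1 dpn alone. For such genes the filter favoured a fall, so the counts of falls are partly set by it.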
